A study of Mus musculus with 8 samples.

Results

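Immunoglobulin V, D and J segments are the germline pieces from which B cells assemble antibody genes. They were taken here as the genes annotated as immunoglobulin V, D, J or LV genes, 255 of the 54532 genes in the count table. They comprised 113 heavy chain (Igh) V, 102 kappa (Igk) V and 3 lambda (Igl) V segments, 19 Igh D segments, 4 Igh J, 5 Igk J and 5 Igl J segments, and 4 LV genes. The data are bulk RNA-seq counts from tumors of 4T1-FLuc, a mouse triple-negative breast cancer line with a luciferase reporter, grown under the skin of female BALB/cJ mice that were 6 weeks old at injection. These hosts are immunocompetent, so the tumors can hold B cells and plasma cells of the mouse. The saline group held 4 tumors whose treatment is also labelled as a PBS control. The mAb-DXd/IMQ group held 4 tumors from mice given 16 mg/kg into a vein every 4 days for 5 courses. The labels name this agent HumCD276-Dxd/IMQ, an antibody to CD276 that carries the topoisomerase I inhibitor DXd and the Toll-like receptor agonist IMQ. The question was how the antibody segments counted in the tumor compare between these groups.

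Library totals lay between 34591912 and 69582375 counts, and levels are given in CPM, the count divided by that total and scaled alike in every tumor. The floor of 3 counts lay between 0.0431 and 0.0867 CPM. Genes with a count of 2 outnumbered those with a count of 1 in each of the 8 tumors, with 1047 to 1626 genes at 2 counts and 723 to 1052 at 1. Intervals and floors take each count as independent, which was not tested, and cover counting error only. They may be too narrow even for that. The genes of the carcinoma list (Epcam, Krt8, Krt18, Krt14, Cdh1 and Cd276) had counts in all 8 tumors, summing to between 1751 and 3118 CPM. Of the receptor genes that define triple-negative disease by their lack, Pgr averaged 0.363 ± 0.276 CPM in saline tumors, Esr1 18.9 ± 1.08 CPM and Erbb2 101 ± 19.7 CPM (SD, n = 4), so the Erbb2 and Esr1 transcripts were present. The segment coordinates matched the GRCm38 build for 255 of 255 segments, a reference made from another strain than BALB/cJ, and the effect of allele differences on the counts was not tested. Saline tumor 4 held 77.7% of all counts on segments and saline tumor 2 held 15.1%, so group values are given with and without these tumors.

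In a developing B cell, the RAG recombinase joins a V, a D and a J segment at the heavy chain locus and a V and a J segment at a light chain locus. Each B cell clone then carries its own joined segments, and its descendants, including plasma cells, keep them. A plasma cell makes far more antibody mRNA than a resting B cell, so a few plasma cell clones can supply most antibody transcripts of a tissue. The V segment encodes most of the variable domain and the J segment its last strand, while D and the joints fall in the loop that often contacts antigen most closely. In bulk RNA, fewer cells of a type and less RNA per cell cannot be told apart.

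The J and D segments are shown first, since they are short and their length bears on how many reads can be counted on them. Each J segment is shown by its shortest transcript. The counted genes Ighj2, Igkj2 and Igkj5 are longer than the sequences shown, at 100, 43 and 42 bases. The capitals mark the motif of the J segment that encodes the glycine bulge of the variable domain, searched on the coding strand only. It was TGGGG, any 4 bases and GG for heavy chain J segments, and TT, any 1 base, GG, any 4 bases and GG for light chain J segments. It was found in 4 of 4 Igh J, 4 of 5 Igk J and 4 of 5 Igl J segments, and Igkj3 and Iglj3p were the segments without it. The sequences run 5′ to 3′ on the coding strand and come from GENCODE M21 transcripts on GRCm38. Ighj1 at chr12:113429781-113429833, Ighj2 at chr12:113429468-113429515, Ighj3 at chr12:113429085-113429132 and Ighj4 at chr12:113428514-113428567 lie on the minus strand. Igkj1 at chr6:70722562-70722599, Igkj2 at chr6:70722916-70722954, Igkj3 at chr6:70723223-70723260, Igkj4 at chr6:70723548-70723585 and Igkj5 at chr6:70723886-70723923 lie on the plus strand. Iglj3p at chr16:19066371-19066408 and Ighd3-2 at chr12:113448214-113448229, the only Igl J and D segments with a count, lie on the minus strand.
Ighj1: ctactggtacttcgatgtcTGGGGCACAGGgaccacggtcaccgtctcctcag
Ighj2: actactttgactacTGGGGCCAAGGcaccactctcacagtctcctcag
Ighj3: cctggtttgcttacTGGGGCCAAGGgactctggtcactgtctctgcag
Ighj4: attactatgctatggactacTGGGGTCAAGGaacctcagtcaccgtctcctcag
Igkj1: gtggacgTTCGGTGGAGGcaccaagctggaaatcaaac
Igkj2: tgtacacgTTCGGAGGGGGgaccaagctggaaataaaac
Igkj3: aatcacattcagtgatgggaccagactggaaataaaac
Igkj4: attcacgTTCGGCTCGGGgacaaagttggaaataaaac
Igkj5: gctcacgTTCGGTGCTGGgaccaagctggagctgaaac
Iglj3p: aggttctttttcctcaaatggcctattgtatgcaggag
Ighd3-2: agacagctcaggctac

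The last 60 bases are shown for Iglv1, for the 5 V segments with the highest mean level, and for Igh V and Igk V segments that led, without a tie, a tumor with at least 20 counts in the locus, because this end meets D or J and because they separate segments of 1 family. The capitals mark codons for tyrosine (TAT or TAC), tyrosine or phenylalanine (TAT, TAC, TTT or TTC) and the conserved cysteine (TGT or TGC). On the coding strand of the last 60 bases, this motif was present in 108 of 113 Igh V segments (95.6%), 99 of 102 Igk V segments (97.1%) and 2 of 3 Igl V segments. Igkv3-1 at chr6:70704118-70704177 and Igkv3-10 at chr6:70573171-70573230 lie on the plus strand. Igkv4-53 at chr6:69648824-69648883, Igkv4-68 at chr6:69304834-69304893, Igkv4-74 at chr6:69184826-69184885, Igkv12-46 at chr6:69764523-69764582 and Igkv19-93 at chr6:68736297-68736356 lie on the minus strand. Ighv9-3 at chr12:114140692-114140751, Ighv9-4 at chr12:114299961-114300020, Ighv14-2 at chr12:113994469-113994528 and Iglv1 at chr16:19085017-19085076 lie on the minus strand as well.
Igkv3-1: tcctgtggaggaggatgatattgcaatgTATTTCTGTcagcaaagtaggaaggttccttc
Igkv3-10: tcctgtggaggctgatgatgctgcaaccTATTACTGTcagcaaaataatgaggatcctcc
Igkv4-53: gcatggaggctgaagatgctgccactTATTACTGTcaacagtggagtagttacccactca
Igkv4-68: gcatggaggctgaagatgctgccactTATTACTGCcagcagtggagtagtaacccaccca
Igkv4-74: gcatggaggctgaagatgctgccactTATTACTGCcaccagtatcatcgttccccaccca
Igkv12-46: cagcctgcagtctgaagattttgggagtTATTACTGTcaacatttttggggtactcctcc
Igkv19-93: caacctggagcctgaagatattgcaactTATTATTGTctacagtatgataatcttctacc
Ighv9-3: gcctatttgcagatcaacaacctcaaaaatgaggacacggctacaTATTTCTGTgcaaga
Ighv9-4: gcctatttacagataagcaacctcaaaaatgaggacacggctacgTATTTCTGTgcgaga
Ighv14-2: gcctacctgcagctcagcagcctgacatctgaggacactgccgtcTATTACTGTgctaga
Iglv1: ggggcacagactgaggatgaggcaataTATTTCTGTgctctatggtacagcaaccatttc

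Of the 255 segments, 96 had at least 1 count in the 8 tumors and 159 had none. All segments together held 4828 counts. By saline tumor, 1 to 4, they held 78, 730, 140 and 3753 counts, which are 1.58, 16.2, 2.48 and 53.9 CPM. By mAb-DXd/IMQ tumor, 1 to 4, they held 15, 20, 90 and 2 counts, which are 0.291, 0.433, 2.09 and 0.0578 CPM. Saline tumors 2 and 4 stood high, the other saline tumors were low, and the groups overlapped because mAb-DXd/IMQ tumor 3 lay above saline tumor 1. The means were 18.6 ± 24.5 CPM in saline and 0.719 ± 0.930 CPM in mAb-DXd/IMQ tumors (SD, n = 4), a ratio of 25.8, and the difference was smaller than the SD among saline tumors. Without saline tumor 4 the saline mean was 6.76 ± 8.20 CPM (SD, n = 3), a ratio of 9.40. Without saline tumors 2 and 4 it was 2.03 ± 0.639 CPM (SD, n = 2), a ratio of 2.82. Leaving out both was chosen after seeing the data.

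**Figure D1:**
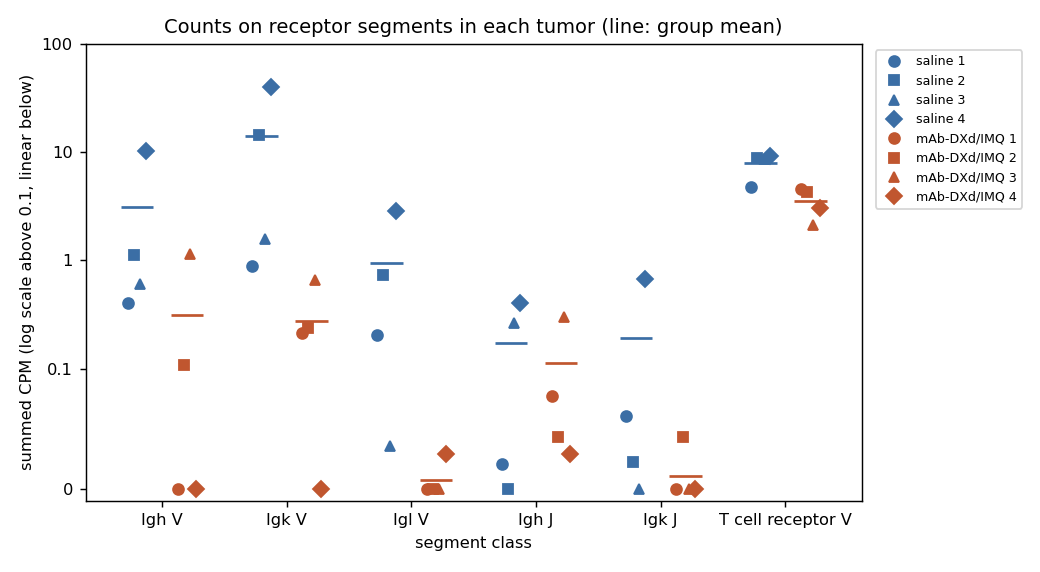
Summed level of each class of segment in each tumor, in CPM on an axis that is logarithmic above 0.1 and linear below it, with lines at the group means and T cell receptor V segments beside them. Saline tumors 2 and 4 stand above the rest for kappa V, where the groups do not overlap, while heavy chain V overlaps.

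Kappa V segments, which pair with heavy chains in most mouse antibodies, held 3590 of the 4828 counts. By saline tumor, 1 to 4, they summed to 44, 644, 89 and 2763 counts, or 0.891, 14.3, 1.58 and 39.7 CPM. By mAb-DXd/IMQ tumor, 1 to 4, they summed to 11, 11, 28 and 0 counts, or 0.213, 0.238, 0.652 and 0 CPM. Every saline tumor lay above every mAb-DXd/IMQ tumor, although saline tumor 1 was close to mAb-DXd/IMQ tumor 3, and the 0 of mAb-DXd/IMQ tumor 4 allows a level of up to 0.0867 CPM. The means were 14.1 ± 18.1 CPM and 0.276 ± 0.272 CPM (SD, n = 4), a ratio of 51.2. This ratio was 20.3 without saline tumor 4 and 4.48 without saline tumors 2 and 4. Of the 102 Igk V segments, 51 had a count. The tumors showed 11, 21, 14 and 20 of them in saline tumors 1 to 4, and 4, 6, 8 and 0 in mAb-DXd/IMQ tumors 1 to 4.

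Igkv3-1 (ENSMUSG00000095682), the kappa V segment nearest to the J cluster of all 102, had the highest mean level of all segments. Its counts in saline tumors 1 to 4 were 8, 2, 7 and 1196, and those in mAb-DXd/IMQ tumors 1 to 4 were 0, 2, 0 and 0. Saline tumor 4 held nearly all of them, at 17.2 CPM, and Igkv3-1 was also the V segment seen in most tumors, 5 of 8. Igkv4-53 (ENSMUSG00000095753), of the large Igkv4 family, had 553 counts (12.3 CPM) in saline tumor 2 and 0 in each of the 7 other tumors. Igkv19-93, the only segment of the Igkv19 family, had 0, 0, 7 and 533 counts in saline tumors 1 to 4, and 0, 0, 6 and 0 in mAb-DXd/IMQ tumors 1 to 4. It was thus high in saline tumor 4 alone, at 7.66 CPM, and present in 1 tumor of the other group. Igkv12-46 had 488 counts (7.01 CPM) in saline tumor 4, 2 counts in mAb-DXd/IMQ tumor 2 and 0 elsewhere. Igkv4-74 had 0, 4, 39 and 5 counts in saline tumors 1 to 4 and none in the other group, with saline tumor 3 the highest. Per kilobase of gene length, the mean level over the 8 tumors was 6.11 CPM for Igkv3-1, 4.18 for Igkv4-53, 2.73 for Igkv19-93 and 2.34 for Igkv12-46.

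Heavy chain V segments, which supply much of the antigen contact, held 870 counts. By saline tumor, 1 to 4, they summed to 20, 50, 34 and 712 counts, or 0.405, 1.11, 0.603 and 10.2 CPM. By mAb-DXd/IMQ tumor, 1 to 4, they summed to 0, 5, 49 and 0 counts, or 0, 0.108, 1.14 and 0 CPM. The groups overlapped, since mAb-DXd/IMQ tumor 3 lay above saline tumors 1 and 3, and above saline tumor 2 as well on this scale but not under TMM scaling (1.07 against 1.13 CPM). Saline tumor 4 was the highest and held 81.8% of all Igh V counts. The zeros of mAb-DXd/IMQ tumors 1 and 4 allow up to 0.0581 and 0.0867 CPM. The means were 3.09 ± 4.77 CPM and 0.312 ± 0.555 CPM (SD, n = 4), a ratio of 9.89, which was 2.26 without saline tumor 4 and 1.61 without saline tumors 2 and 4. Of the 113 Igh V segments, 32 had a count. Saline tumors 1 to 4 showed 2, 7, 6 and 17 of them, and mAb-DXd/IMQ tumors 1 to 4 showed 0, 3, 9 and 0.

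Ighv9-3 (ENSMUSG00000096459) was the heavy chain V segment with the highest mean level, 1.97 CPM per kilobase over the 8 tumors. Its counts in saline tumors 1 to 4 were 12, 8, 0 and 352, and those in mAb-DXd/IMQ tumors 1 to 4 were 0, 2, 0 and 0. It was high in saline tumor 4, at 5.06 CPM, and at 0 in saline tumor 3. Ighv14-2 had 0, 0, 0 and 16 counts in saline tumors 1 to 4 and 0, 1, 14 and 0 counts in mAb-DXd/IMQ tumors 1 to 4. Its level was 0.326 CPM in mAb-DXd/IMQ tumor 3 and 0.230 CPM in saline tumor 4, and it had no count in the other saline tumors. The Ighv14 family made up 61.1% of the Igh V counts of the mAb-DXd/IMQ group and 3.06% of those of the saline group. These shares rest on 1 tumor each, since mAb-DXd/IMQ tumor 3 held 32 of the 33 treated counts, leaving 1 of 5 without it, and saline tumor 4 held all 25 saline counts.

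**Figure D2:**
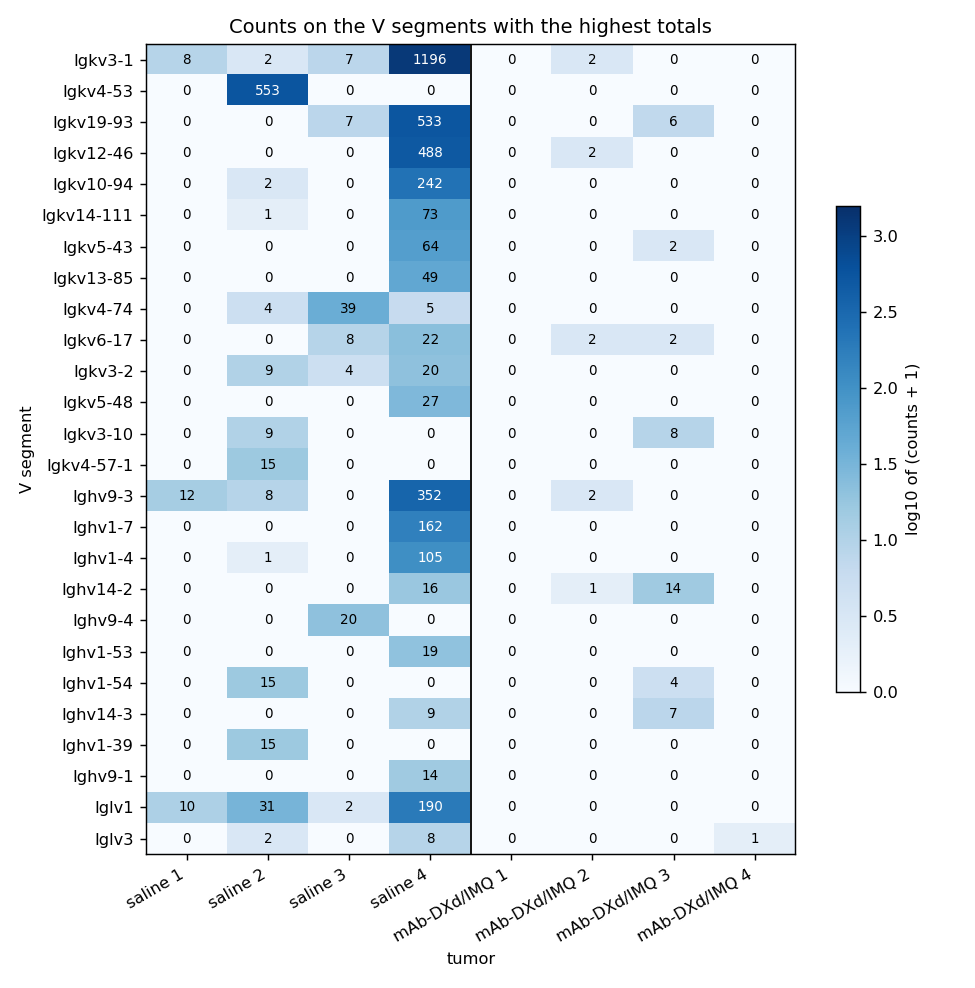
Counts of the V segments with the highest totals (vertical) in each of the 8 tumors (horizontal), with the count printed in each cell and shaded by its size. Igkv4-53 fills 1 cell, with 553 counts in saline tumor 2, and Igkv3-1 has 1196 counts in saline tumor 4 and at most 8 in any other tumor.

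Lambda light chains, the minor light chain class of the mouse, were represented mainly by Iglv1 (ENSMUSG00000076934). It had 10, 31, 2 and 190 counts in saline tumors 1 to 4 and 0 counts in each of the 4 mAb-DXd/IMQ tumors. Every saline tumor had some Iglv1 and no treated tumor had any, with saline tumor 3 at only 2 counts. The lambda constant gene Iglc2, chosen after its values were seen, had 2, 4, 0 and 27 counts in saline tumors 1 to 4 and 4, 0, 4 and 9 in mAb-DXd/IMQ tumors 1 to 4, so those groups overlapped. In the same order, Iglc1 had 0, 7, 0 and 25 counts and then 0, 0, 2 and 0, and Iglc3 had 0, 2, 1 and 20 and then 0 in each. Iglc4 had 0 counts in every tumor. Against the floor of 3 counts over the mAb-DXd/IMQ group, 0.0171 CPM, Iglv1 was at least 61.8-fold lower than in the pooled saline tumors. Without saline tumor 4 it was at least 16.7-fold lower. Without saline tumors 2 and 4 no such bound was computed. The saline mean of Igl V, all on Iglv1, was then 0.119 ± 0.118 CPM (SD, n = 2). Iglv3 had 2 counts in saline tumor 2, 8 in saline tumor 4 and 1 in mAb-DXd/IMQ tumor 4, and Iglv2 had none.

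D segments, which are 10 to 29 bases long and lie inside the joined heavy chain transcript, gave almost no counts. Ighd3-2 had 2 counts in saline tumor 2 and 1 in saline tumor 4, and the 18 other D segments had 0 in all tumors. Heavy chain J segments had 1, 0, 15 and 28 counts in saline tumors 1 to 4 and 4, 2, 13 and 1 counts in mAb-DXd/IMQ tumors 1 to 4. The groups overlapped, and saline tumor 2 had no heavy chain J count although it had 50 on heavy chain V. The Igh J means were 0.172 ± 0.195 CPM in saline and 0.113 ± 0.128 CPM in mAb-DXd/IMQ tumors (SD, n = 4), and without saline tumor 4 the saline mean of 0.0954 CPM was the lower. Without saline tumors 2 and 4 the saline mean was 0.143 CPM and again the higher. Ighj1 had the most counts among the Igh J segments, 23, of which 19 lay in saline tumor 4, where it took 67.9% of the Igh J counts (95% exact Clopper-Pearson interval 47.6 to 84.1). Ighj2 led saline tumor 3 with 10 of 15 counts, and Ighj4 led mAb-DXd/IMQ tumor 3 with 6 of 13. Ighj3 had the 2 counts of mAb-DXd/IMQ tumor 2, and it shared the 4 counts of mAb-DXd/IMQ tumor 1 evenly with Ighj2. The single counts of saline tumor 1 and mAb-DXd/IMQ tumor 4 lay on Ighj1 and Ighj4.

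Kappa J segments had 3, 1, 0 and 47 counts in saline tumors 1 to 4 and 0, 2, 0 and 0 in mAb-DXd/IMQ tumors 1 to 4. Counts were thus concentrated in saline tumor 4, where all 5 Igk J segments were seen. There, Igkj2 had 15 counts (31.9%, interval 19.1 to 47.1), Igkj4 had 14 (29.8%, interval 17.3 to 44.9), and their intervals overlapped. Igkj4 had the highest total, 17 counts, and led saline tumors 1 and 2 with 2 counts and 1 count. Igkj5 was the segment with the 2 counts in mAb-DXd/IMQ tumor 2. Igkj3, whose sequence lacks the glycine motif, had 6 counts in saline tumor 4 and 0 in all other tumors. Iglj3p had 4 counts in saline tumor 4, and the other 4 Igl J segments and all 4 LV genes had none.

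Dominance was read as the share of a locus's V counts on its leading segment, the one with most counts, with 95% exact Clopper-Pearson intervals. In kappa, saline tumor 2 was dominated by Igkv4-53, with 553 of 644 counts (85.9%, interval 82.9 to 88.5), and Igkv4-57-1 came next with 15 (2.33%, interval 1.31 to 3.81). In saline tumor 4, Igkv3-1 led with 1196 of 2763 counts (43.3%, interval 41.4 to 45.2), followed by Igkv19-93 with 533 (19.3%, interval 17.8 to 20.8). These tumors had the most counts and different leaders. Saline tumor 3 was led by Igkv4-74, with 39 of 89 counts (43.8%, interval 33.3 to 54.7), and Igkv6-17 followed with 8 (8.99%, interval 3.96 to 16.9), tied with another segment. Saline tumor 1 was led by Igkv4-68, with 12 of 44 counts (27.3%, interval 15 to 42.8), ahead of Igkv3-1 with 8 (18.2%, interval 8.19 to 32.7). By count the leading kappa V segment differed among the 4 saline tumors, but in saline tumor 1 the intervals of Igkv4-68 and Igkv3-1, the leader of saline tumor 4, overlapped. The leading share averaged 50.1 ± 25.1% (SD, n = 4).

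In the mAb-DXd/IMQ group, only tumor 3 held more than 11 kappa V counts. There Igkv3-10 led with 8 of 28 counts (28.6%, interval 13.2 to 48.7), followed by Igkv19-93 with 6 (21.4%, interval 8.30 to 41.0). The intervals of these shares overlap, so no single leader could be told from the next at this depth. Igkv12-89 had 5 of the 11 counts of mAb-DXd/IMQ tumor 1 (45.5%, interval 16.7 to 76.6), ahead of 3 segments with 2 each. In mAb-DXd/IMQ tumor 2, Igkv12-46 and Igkv13-84 were among 5 segments with 2 counts each of 11. Igkv3-10, the leader of mAb-DXd/IMQ tumor 3, also had 9 counts in saline tumor 2 and 0 in the 6 other tumors.

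In the heavy chain locus, Ighv9-3 had most counts in saline tumors 1 and 4. It had 12 of 20 counts in saline tumor 1 (60%, interval 36.1 to 80.9), where Ighv1-55 had the other 8 (40%, interval 19.1 to 63.9, which overlaps), and 352 of 712 in saline tumor 4 (49.4%, interval 45.7 to 53.2), where Ighv1-7 had 162 (22.8%, interval 19.7 to 26.0). Saline tumor 3 was led by Ighv9-4, another Ighv9 segment, with 20 of 34 counts (58.8%, interval 40.7 to 75.4), and Ighv3-5 had 6 (17.6%, interval 6.76 to 34.5). Saline tumor 2, dominated by 1 kappa segment, had no single heavy chain leader, since Ighv1-39 and Ighv1-54 had 15 of 50 counts each (30%, interval 17.9 to 44.6). In mAb-DXd/IMQ tumor 3, Ighv14-2 had 14 of 49 counts (28.6%, interval 16.6 to 43.3), and Ighv14-1 and Ighv14-3 had 7 each (14.3%, interval 5.94 to 27.2). In mAb-DXd/IMQ tumor 2, Ighv5-4 and Ighv9-3 had 2 of 5 counts each. The leading share averaged 49.6 ± 13.9% in the saline tumors (SD, n = 4).

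**Figure D3:**
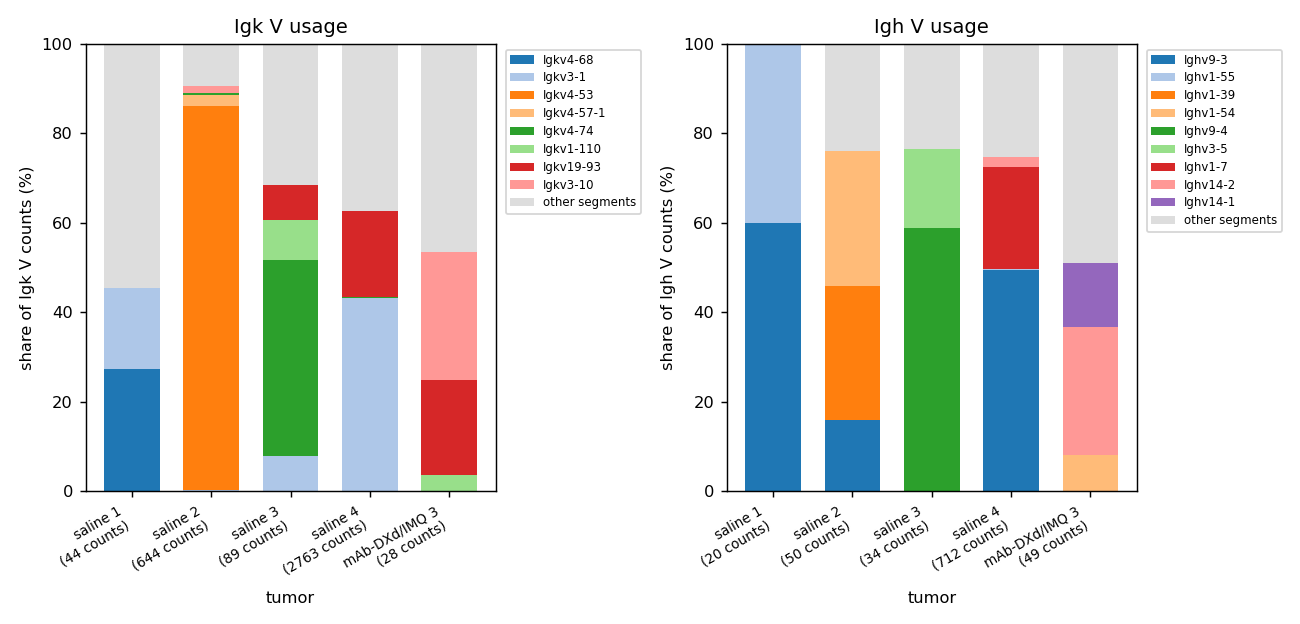
Stacked shares, in percent, of kappa V (left) and heavy chain V (right) counts by segment, in the 5 tumors with at least 20 counts in the locus. Igkv4-53 takes 85.9% of kappa V in saline tumor 2, and the segment with most kappa counts differs among the 5 tumors.

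Diversity was read as the effective number of segments, the inverse of the unbiased Simpson index, in tumors with at least 20 V counts in the locus, a limit chosen after the counts were seen. For kappa V it was 7.33, 1.35, 4.57 and 3.77 in saline tumors 1 to 4 and 6.87 in mAb-DXd/IMQ tumor 3. Saline tumor 2 was the least diverse, and the treated tumor lay within the range of the saline tumors. For heavy chain V it was 2.02, 4.68, 2.65 and 3.13 in saline tumors 1 to 4 and 7.13 in mAb-DXd/IMQ tumor 3. The treated tumor lay above each saline tumor for heavy chain V. With 1 treated tumor deep enough, the groups could not be compared. The saline means were 4.26 ± 2.46 for kappa V and 3.12 ± 1.13 for heavy chain V (SD, n = 4).

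Depth differed between tumors, so the expected number of segments was also computed at an equal draw. At 28 kappa V counts, saline tumors 1 to 4 would show 9.56, 4.46, 9.66 and 6.44 segments and mAb-DXd/IMQ tumor 3 would show 8. Saline tumors 1 and 3, with few counts, then showed more segments than saline tumors 2 and 4, although the latter had more in total. At 20 heavy chain V counts, saline tumors 1 to 4 would show 2, 5.56, 4.99 and 5.22 segments and mAb-DXd/IMQ tumor 3 would show 7.82. Saline tumor 1 was the lowest and the treated tumor the highest.

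**Figure D4:**
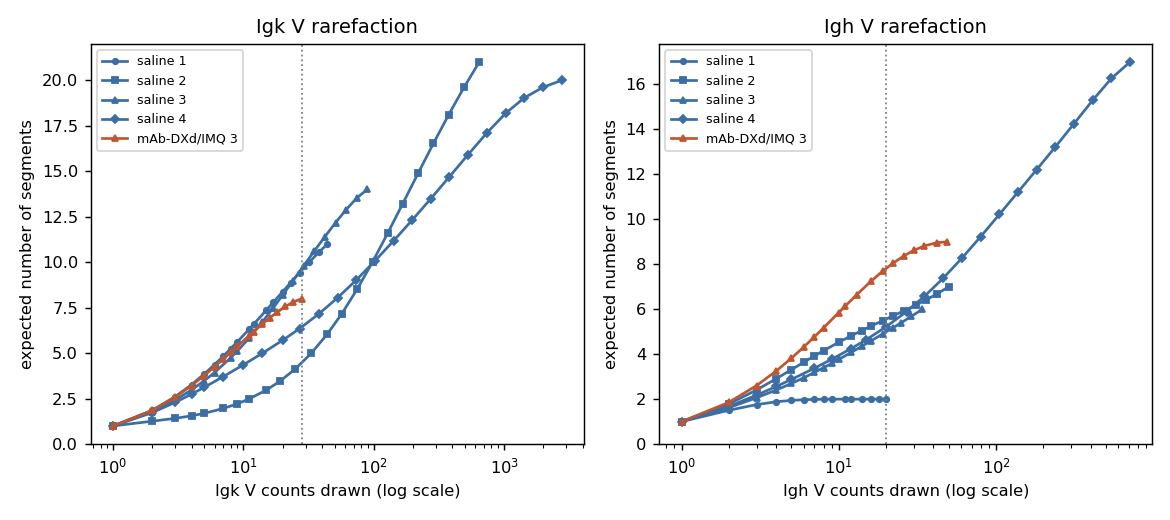
Expected number of V segments (vertical) against the number of V counts drawn (horizontal), for kappa V and heavy chain V, with 1 line per tumor and a dotted line at 28 and 20 counts. At 28 kappa counts, saline tumor 2 is the lowest at 4.46 segments and saline tumor 3 the highest at 9.66.

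Most V segments with a count were seen in a single tumor. Of 218 V segments, 85 had a count, 54 of them in 1 tumor, 18 in 2, 8 in 3, 4 in 4 and 1, Igkv3-1, in 5. The saline group showed 76 segments and the mAb-DXd/IMQ group 28. Of these, 19 were in both, which is 25% of the saline segments and 67.9% of the mAb-DXd/IMQ segments, and 57 were in saline only and 9 in mAb-DXd/IMQ only. Among the saline segments, 56 were seen in 1 saline tumor only, and 2, Igkv3-1 and Iglv1, in all 4. Saline tumor 4, with most counts, showed 39 V segments, of which 15 were in no other tumor. It shared 7 of the 9 segments of mAb-DXd/IMQ tumor 2 (77.8%) and 8 of the 17 of mAb-DXd/IMQ tumor 3 (47.1%), which are 17.9% and 20.5% of its own. It shared 0 of the 4 segments of mAb-DXd/IMQ tumor 1 and the 1 of mAb-DXd/IMQ tumor 4. For 2 of the 218 V segments, Igkv3-1 and Iglv1, every saline tumor lay above every mAb-DXd/IMQ tumor in CPM, and for 0 the reverse held. Among V segments with a count, these 2 are 2.35%, and among all 31459 genes with a count the saline tumors lay above in 3.84% and the mAb-DXd/IMQ tumors in 4.67%. By the other criterion used, edgeR's thresholds, 1.06% of all genes tested passed, 0.546% as higher and 0.519% as lower in mAb-DXd/IMQ tumors. For Igkv3-1 this order rests on 2 counts in saline tumor 2 (0.0444 CPM) against 2 in mAb-DXd/IMQ tumor 2 (0.0433 CPM).

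Families differed in how much of their membership was seen. All 4 members of Ighv9 had a count, and they held 49.9% of the saline Igh V counts, or 38.5% without saline tumor 4. Ighv1, the largest heavy chain family with 53 members, had 11 members with a count and 41.9% of the saline Igh V counts, or 50% without saline tumor 4. In kappa, 10 of the 26 Igkv4 segments had a count, and the family held 18.4% of the saline Igk V counts, but 83.0% without saline tumor 4. Igkv3 had counts on 8 of its 9 members and held 36.0% of the saline Igk V counts, or 6.31% without saline tumor 4. The order of these kappa families thus turned with 1 tumor. In saline tumors 1 to 4, Igkv4 had 12, 588, 45 and 7 counts and Igkv3 had 10, 26, 13 and 1224, so Igkv4 was ahead in the first 3 of them.

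Segments along the whole kappa locus were seen. Kappa V segments lie between 18.4 and 3166 kb from the J cluster. Of the segments within 1000 kb, 23 of 41 had a count, against 15 of 32 from 1000 to 2000 kb, 12 of 27 from 2000 to 3000 kb and 1 of 2 beyond. Igkv3-1 lies at 18.4 kb, Igkv4-53 at 1073 kb and Igkv19-93 at 1986 kb, so these most counted segments lay within 2000 kb of the J cluster. Kappa V segments on the plus strand, which share the orientation of J and join it by deletion, had a count in 21 of 38 cases, and those on the minus strand, which join by inversion, in 30 of 64. For heavy chain V, 17 of 46 segments within 1000 kb had a count, 10 of 44 from 1000 to 2000 kb and 5 of 23 from 2000 to 3000 kb. The heavy chain counts of the mAb-DXd/IMQ group were 48, 4 and 2 in these bins, nearly all from the nearest. Those of saline tumors 1 to 3 were 47, 50 and 7, and those of saline tumor 4 were 419, 291 and 2, and in both the second bin held a larger part than in the mAb-DXd/IMQ group. The mAb-DXd/IMQ values rest on tumor 3, which held 49 of the 54 counts.

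**Figure D5:**
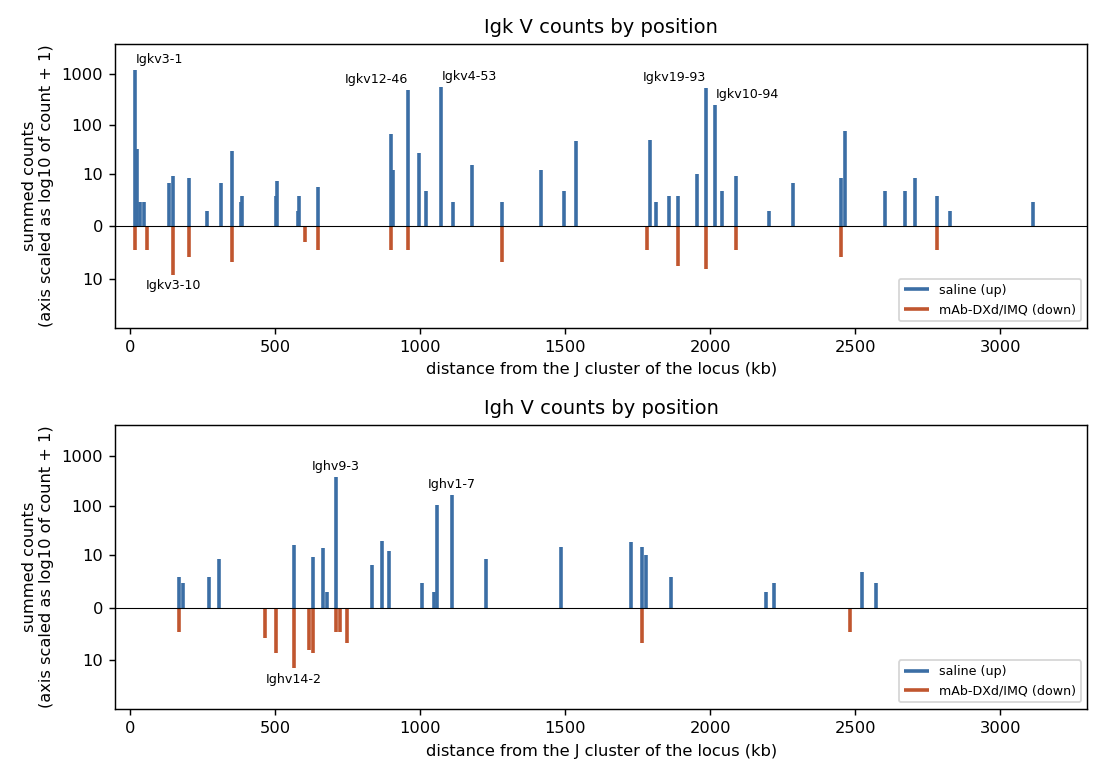
Counts of each kappa V (top) and heavy chain V (bottom) segment against its distance from the J cluster in kb, with saline counts drawn upward and mAb-DXd/IMQ counts downward. Segments with counts lie along the whole kappa locus, from 18.4 kb, while the mAb-DXd/IMQ heavy chain counts lie mostly within 1000 kb.

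Related V segments can share sequence, so 100-base windows of each were compared with all other V genes and V pseudogenes. Of the 85 V segments with a count, 51 had every window unique and 1 had under 50% unique, and of the 133 without a count, 81 and 4 did. The share was 100% for Igkv3-1, Igkv19-93, Igkv12-46, Ighv9-3 and Ighv14-2, 98.3% for Iglv1, 92.5% for Igkv4-53 and 81.0% for Igkv3-10. Reads carrying somatic mutations may still be placed on another segment, which was not tested. The V pseudogenes had 13 counts in saline and 14 in mAb-DXd/IMQ tumors, beside 4599 and 105 on V segments. All 14 in the mAb-DXd/IMQ group lay on Igh, where V segments had 54, and 10 of the 14 were in tumor 3. Kappa pseudogenes had none there beside 50 kappa V counts.

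The light chain mix was mostly kappa. Kappa made up 81.5% of kappa and lambda V counts in saline tumor 1 (interval 68.6 to 90.7), 95.1% in saline tumor 2 (93.2 to 96.6), 97.8% in saline tumor 3 (92.3 to 99.7) and 93.3% in saline tumor 4 (92.4 to 94.2). Saline tumor 1 was the lowest, with an interval below those of the other saline tumors. In mAb-DXd/IMQ tumor 3, 28 of 28 light chain V counts were kappa, which allows a lambda share of up to 12.3%. The other mAb-DXd/IMQ tumors had 11 light chain V counts or fewer.

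V counts were set beside counts on the constant genes, which encode the rest of each chain and were chosen for this after values were seen. Counts per kilobase of Igk V over those of Igkc were 0.381, 0.880, 0.636 and 0.465 in saline tumors 1 to 4 and 0.680, 0.267, 0.864 and 0 in mAb-DXd/IMQ tumors 1 to 4. The groups overlapped in this ratio. Of 4 constant genes tested, Igkc was lower in mAb-DXd/IMQ tumors, with a log2 fold change of -5.40 (adjusted p = 0.0489), as was Ighg1, with -6.38 (adjusted p = 0.0409), in edgeR's quasi-likelihood test with Benjamini-Hochberg adjustment. Ighm and Igha did not pass, with log2 fold changes of -0.25 and 0.33 (adjusted p = 0.82 and 0.69, edgeR's quasi-likelihood test with Benjamini-Hochberg adjustment). Igkc and Ighg1 passed in 6 of 15 alternatives each, over which the adjusted p ran from 0.000191 to 0.142 for Igkc and from 0.000494 to 0.272 for Ighg1 (edgeR and DESeq2, Benjamini-Hochberg adjustment). Of the fits without 1 tumor, only that without saline tumor 1 kept them. Without saline tumors 2, 3 and 4 in turn, the adjusted p of edgeR's quasi-likelihood test with Benjamini-Hochberg adjustment was 0.0662, 0.0681 and 0.107 for Igkc and 0.0641, 0.0657 and 0.119 for Ighg1. Without mAb-DXd/IMQ tumors 1 to 4 in turn, that of edgeR's quasi-likelihood test with Benjamini-Hochberg adjustment was 0.0860, 0.0958, 0.0912 and 0.132 for Igkc and 0.0622, 0.0875, 0.0747 and 0.122 for Ighg1. The log2 fold changes in these fits were -3.44 for Igkc without saline tumor 4 and otherwise -5.18 to -5.78, and -5.58 to -7.10 for Ighg1. Without saline tumors 2 and 4 together they were -1.88 and -2.82. For heavy chain V over the Igh constant genes, the ratios were 0.361, 0.108, 0.168 and 0.391 in saline tumors 1 to 4 and 0, 0.0408, 0.361 and 0 in mAb-DXd/IMQ tumors 1 to 4. Ighm, which encodes the heavy chain of IgM, was the leading heavy chain constant gene in saline tumors 1 and 3 and in all 4 mAb-DXd/IMQ tumors. In the tumors with most V counts it was Ighg1 (2095 counts, saline tumor 2) and Ighg3 (4076 counts, saline tumor 4), which encode IgG heavy chains. Mean levels of the T cell receptor V segments, the like genes of T cells, were 7.87 ± 2.12 CPM in saline and 3.51 ± 1.13 CPM in mAb-DXd/IMQ tumors (SD, n = 4). The groups did not overlap on this scale but did under TMM scaling, where saline tumor 1 had 4.72 CPM and mAb-DXd/IMQ tumor 1 had 4.85. Their ratio of 2.24 was 2.12 without saline tumor 4, so that tumor bore on it far less than on the immunoglobulin V sum.

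The comparison of mAb-DXd/IMQ with saline tumors used edgeR's quasi-likelihood test, adjusted by Benjamini-Hochberg over all genes tested, with thresholds of 0.05 on the adjusted p and 0.58 on the absolute log2 fold change. Of 18511 genes that passed the filter on low counts, 197 (1.06%) passed the thresholds, 101 higher (0.546%) and 96 lower (0.519%). None of the 255 segments passed the filter, so 0 were tested and 0 passed. Unadjusted p was under 0.05 for 0 segments and 3503 genes, and DESeq2 on the same genes also held 0 segments. In the 8 fits without 1 tumor, at most 1 segment was tested and none passed. A segment was tested without mAb-DXd/IMQ tumors 2, 3 and 4 in turn, with log2 fold changes of -8.55, -8.55 and -8.59. Each had an unadjusted p under 0.05 in edgeR's quasi-likelihood test. The number of genes passing was 111 without saline tumor 2, 10 without saline tumor 3, 11 without saline tumor 4, and 76, 88 and 12 without mAb-DXd/IMQ tumors 2, 3 and 4.

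With every gene of at least 1 count kept, 96 segments were tested and 3 passed, all lower, which is 3.13% beside 1.14% of all 31459 genes tested. Most segments had few counts, and a fitted fold change against a group near 0 depends on the prior count. At unadjusted p under 0.05 there were 20 segments (20.8%) and 4252 of all genes (13.5%). Iglv1 had a log2 fold change of -8.54 (SE 1.61, adjusted p = 0.0189, edgeR's quasi-likelihood test with Benjamini-Hochberg adjustment), with counts in 4 of 4 saline and 0 of 4 mAb-DXd/IMQ tumors. Igkv3-1 had -8.35 (SE 1.81, adjusted p = 0.0282, edgeR's quasi-likelihood test with Benjamini-Hochberg adjustment), and Ighv9-3 had -6.68 (SE 1.54, adjusted p = 0.0381, from that edgeR quasi-likelihood test with Benjamini-Hochberg adjustment). Without saline tumor 4 the adjusted p of edgeR's quasi-likelihood test with Benjamini-Hochberg adjustment was 0.0751 for Iglv1, 0.538 for Igkv3-1 and 0.501 for Ighv9-3, so none passed. Their log2 fold changes were then -6.87, -3.06 and -3.39. Without saline tumors 2 and 4 together they were -5.53, -3.44 and -3.20, and none passed. Without mAb-DXd/IMQ tumor 4, none passed either, although the log2 fold changes were -8.59, -8.08 and -6.41, with adjusted p of 0.0546, 0.0970 and 0.118 in edgeR's quasi-likelihood test with Benjamini-Hochberg adjustment. Igkv3-1 and Ighv9-3 also did not pass without mAb-DXd/IMQ tumor 1 (adjusted p = 0.0846 and 0.0956) or 3 (0.0597 and 0.0738) in edgeR's quasi-likelihood test with Benjamini-Hochberg adjustment. Their log2 fold changes were -7.99 and -6.32 without mAb-DXd/IMQ tumor 1, and -7.99 and -6.33 without mAb-DXd/IMQ tumor 3. Over the alternatives with no filter, the adjusted p of edgeR's quasi-likelihood test with Benjamini-Hochberg adjustment ran from 0.000928 to 0.353 for Iglv1, 0.000593 to 0.623 for Igkv3-1 and 0.0037 to 0.697 for Ighv9-3. In DESeq2 without the filter, 1 segment had an adjusted p and passed, Iglv1, beside 806 of all 19770 genes tested. In that fit 3 of the 85 segments with a p had an unadjusted p under 0.05.

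Genes of the cells and machinery behind the segments were read from lists, beside a median log2 fold change of 0.02 over all genes tested. Of those 18511 genes, 197 passed in edgeR (1.06%) and 787 in DESeq2, and 3503 had an unadjusted p under 0.05 in edgeR. Of 10 plasma cell genes, 9 were tested, 1 passed as higher and 0 as lower, with a median of -0.13. At unadjusted p under 0.05 there were 4, Fkbp11 with a positive log2 fold change, and Jchain, Irf4 and Mzb1 with values of -4.30, -1.26 and -3.03. The gene that passed was Fkbp11, a secretory pathway peptidyl-prolyl isomerase, with a log2 fold change of 0.67 (SE 0.14, adjusted p = 0.0492, edgeR's quasi-likelihood test with Benjamini-Hochberg adjustment), and it passed in 5 of 15 alternatives. It passed in none of the fits without 1 tumor, where the adjusted p of edgeR's quasi-likelihood test with Benjamini-Hochberg adjustment was 0.0743, 0.101, 0.112 and 0.143 without saline tumors 1 to 4 and 0.0622, 0.0622, 0.0664 and 0.121 without mAb-DXd/IMQ tumors 1 to 4. Its log2 fold change in these fits was 0.57 to 0.75. The most abundant genes of this list were Sdc1 (251 ± 53.7 and 317 ± 50.7 CPM in saline and mAb-DXd/IMQ tumors, SD, n = 4), which carcinoma cells also express, and Xbp1 (167 ± 19.6 and 172 ± 12.3 CPM) and Prdm1 (22 ± 4.78 and 23.5 ± 9.81 CPM). Summed CPM of the list was 494, 427, 464 and 496 in saline tumors 1 to 4 and 580, 550, 570 and 462 in mAb-DXd/IMQ tumors 1 to 4, and 3 of the 4 mAb-DXd/IMQ tumors lay above every saline tumor. Sdc1 and Xbp1 made up most of this sum. Jchain, which links antibody polymers and was chosen after its values were seen, had 1.36, 7.0, 0.993 and 26.9 CPM in saline tumors 1 to 4. It had 0.310, 0.476, 0.768 and 0.347 CPM in mAb-DXd/IMQ tumors 1 to 4, each below every saline tumor, and saline tumors 2 and 4 were the highest, as for the kappa V sum. Its log2 fold change of -4.30 (SE 0.98) did not pass, with adjusted p = 0.0557 in edgeR's quasi-likelihood test with Benjamini-Hochberg adjustment. It passed in edgeR with no filter (adjusted p = 0.0117) and without saline tumor 1 (adjusted p = 0.0390), and over the 15 alternatives the adjusted p ran from 0.00165 to 0.381 (edgeR's quasi-likelihood test and DESeq2, Benjamini-Hochberg adjustment). The log2 fold change was -2.75 without saline tumor 4 and -1.35 without saline tumors 2 and 4. With DESeq2, 3 of the plasma cell genes passed, Fkbp11 as higher and Jchain and Irf4 as lower. In that fit 787 of all 18511 genes passed, 438 as higher and 349 as lower.

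Of 13 B cell genes, 9 were tested and none passed in edgeR, with 3 at unadjusted p under 0.05 and a median of 0.21. With DESeq2, 1 passed as higher (Pax5) and 2 as lower (Cd22 and Cd79b), beside 438 and 349 of all 18511 genes. Irf4, Mzb1, Pax5 and Cd79b are named after their values were seen. The list summed to 7.41, 19.8, 11.4 and 14.6 CPM in saline tumors 1 to 4 and 10.7, 9.26, 16.5 and 8.82 CPM in mAb-DXd/IMQ tumors 1 to 4, and the groups overlapped. Its most abundant genes were Ebf1 (3.59 ± 0.778 and 4.69 ± 1.46 CPM), Cd22 (4.8 ± 3.09 and 1.93 ± 0.95 CPM) and Bank1 (1.17 ± 1.28 and 1.38 ± 1.19 CPM; SD, n = 4). Saline tumor 4 did not have the highest sum, although it had most counts on segments. Of 3 octamer factor genes, which act on V segment promoters, 2 were tested and none passed in edgeR or DESeq2, with 0 at unadjusted p under 0.05 and a median of -0.09. Pou2f1 averaged 29.2 ± 2.71 and 23.5 ± 6.71 CPM, and Pou2f2 9.95 ± 1.65 and 11.7 ± 7.61 CPM (SD, n = 4). Their coactivator Pou2af1 had 6, 11, 12 and 89 counts in saline tumors 1 to 4 and 0, 0, 2 and 0 in mAb-DXd/IMQ tumors 1 to 4, without overlap in CPM. Of 14 genes of V(D)J recombination and class switch, 11 were tested and none passed in edgeR or DESeq2, with 0 at unadjusted p under 0.05 and a median of 0.14. Rag1 and Rag2, which begin V(D)J recombination, were at 0 in all 8 tumors. The most abundant of this list were the end-joining genes Xrcc5 (36.7 ± 2.30 and 42.2 ± 5.96 CPM), Polm (34.5 ± 6.82 and 36.1 ± 9.56 CPM) and Xrcc6 (33.3 ± 1.82 and 38.8 ± 2.12 CPM). Xrcc6 was higher in every mAb-DXd/IMQ tumor than in any saline tumor in CPM, but the groups overlapped under TMM scaling.

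The 4 surrogate light chain genes, which serve precursor B cells, had too few counts to be tested, and their sum was at most 0.372 CPM, with Vpreb1 the most abundant. Of the lymphoid tissue list, 7 genes with 9 entries in the table, 4 entries were tested and none passed in edgeR, with 1 at unadjusted p under 0.05 and a median of -0.10. With DESeq2, which passed 349 of all 18511 genes as lower, 1 entry of this list passed, Cxcl13, as lower. The most abundant genes of the list were Ltb (10.2 ± 1.80 and 13.4 ± 0.981 CPM), Cxcl13 (4.89 ± 2.73 and 1.36 ± 0.884 CPM) and Ccl21a (0.888 ± 1.27 and 0.791 ± 0.894 CPM, SD, n = 4). Ltb was higher in every mAb-DXd/IMQ tumor than in any saline tumor in CPM, but the groups overlapped under TMM scaling. Of 6 T cell genes, 6 were tested and 2 passed, both lower, with 6 at unadjusted p under 0.05 and a median of -1.09. Of all 18511 genes tested, 96 passed as lower in edgeR (0.519%) and 3503 had an unadjusted p under 0.05. With DESeq2, which passed 349 of all 18511 genes as lower, 5 of the T cell genes passed, all lower. The genes past edgeR's thresholds were Cd4, with a log2 fold change of -1.91, and Cd8a, with -1.22 (adjusted p = 0.0201 for each, edgeR's quasi-likelihood test with Benjamini-Hochberg adjustment), and each passed in 10 of 15 alternatives. Neither passed without saline tumor 3, saline tumor 4 or mAb-DXd/IMQ tumor 4, with adjusted p of 0.0657, 0.0846 and 0.0694 for each gene and log2 fold changes of -1.77 to -1.92 for Cd4 and -1.17 to -1.22 for Cd8a in edgeR's quasi-likelihood test with Benjamini-Hochberg adjustment. Of the 6 carcinoma genes, 3 receptor genes and the pan-leukocyte gene Ptprc, all were tested and none passed in edgeR or DESeq2, with 1, 1 and 0 at unadjusted p under 0.05 and medians of 0.26, -0.02 and -0.16. Cd8a, Cd8b1 and Esr1, among the most abundant of their lists, were lower in every mAb-DXd/IMQ tumor than in any saline tumor. This held in CPM and under TMM scaling. In CPM, saline tumors lay above in 3.84% of all 31459 genes with a count, and mAb-DXd/IMQ tumors in 4.67%. Whether the spread of the segments goes with the number of plasma cells in a tumor was not tested.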

How the data were processed

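RNA from 8 tumors, 4 per group, was measured by poly-A selected RNA-seq. The deposited table holds unnormalized counts of reads on each gene, with gene lengths. The submitters' notes name HISAT2, HISAT, TopHat2 and the build mm39, while the deposited coordinates match GENCODE M21 on GRCm38, and the counting program and strandedness are not stated. CPM divides counts by all counts of the library. Tests used edgeR 4.0.16 (filterByExpr, TMM, quasi-likelihood) in R 4.3.3, with DESeq2 1.42.0 as another tool. Usage was computed in Python 3.11.15 with pandas 2.3.3 and scipy 1.17.1. Only the edgeR and DESeq2 fits were tested on simulated counts, with the same spread set for every gene, unlike the segments here. The diversity formulas were checked on cases with a known answer, and the other usage steps were not simulated. Members and lists were chosen with earlier results of these data known. Segments named were the 2 leading Igh V and Igk V and the leading Igl V and J of each tumor, the leading D and J by total, the 5 with the highest mean CPM and any past the thresholds. A segment tied for the next place in saline tumor 3 and mAb-DXd/IMQ tumor 1 is given by its count alone. List genes named were those past the thresholds and the 3 most abundant of each list. Alternatives were other scalings, no filter, DESeq2, no fold limit, a replicate block, V pseudogenes, other diversity indices, values per kilobase and each tumor left out. Leaving out saline tumors 2 and 4 was added after seeing the data. Reads were not used, so clones and mutations were not examined.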

Additional observations from a re-analysis of the deposited data

Results flagged for a closer look

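In 49 groups of 4 tumors, the gap from the highest or lowest tumor to its nearest neighbor was compared with the whole range of the group, and it exceeded Dixon's critical value in 16. Chance gives about 1 in 20 groups where values follow a normal distribution. The values were not transformed and their distribution was not tested, so this rate may not hold here. In 8 of the 16 the other 3 tumors were at 0, so that any count in 1 tumor gives the highest possible value of 1, and the chance rate does not apply to them. Nor does it apply to the single segments, which were taken for their high mean CPM and so could be high through 1 tumor. Many of the 16 share counts, since single segments are part of the sums, so they are not separate observations. Saline tumor 4 stood high for summed Igh V (0.928 of the range), summed Igk J (0.910), Igkv3-1 (0.993), Igkv19-93 (0.984), Igkv12-46 (1) and Ighv9-3 (0.952). Saline tumor 2 stood high for Igkv4-53 (1). Saline tumor 1 stood low for summed T cell receptor V (0.876), at 4.72 CPM beside 8.65 CPM in the next tumor. mAb-DXd/IMQ tumor 3 stood high for summed Igh V (0.905), Igkv19-93 (1) and the pan-leukocyte gene Ptprc (0.945), the last at 205 CPM beside 123 CPM in the next tumor. mAb-DXd/IMQ tumor 2 stood high for summed Igk J (1), Igkv3-1 (1), Igkv12-46 (1) and Ighv9-3 (1), each with 2 counts where the others had 0. mAb-DXd/IMQ tumor 4 stood high for summed Igl V (1) through 1 count. The causes were not tested.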

How the results depend on the processing

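The sums over all segments, Igh V and Igk V kept their direction, saline above mAb-DXd/IMQ, under TMM scaling, with V pseudogenes added and with tumors left out. The Igh J sum did not, as given with its values. Leaving out 1 tumor at a time, the difference of means lay between 6.04 and 23.5 CPM for all segments, 5.32 and 18.3 CPM for Igk V, and 0.394 and 3.67 CPM for Igh V. The mean effective number of segments in saline tumors became an expected 7.53 Igk V and 4.44 Igh V segments at an equal draw, another quantity by construction. The number of genes past the thresholds was 358 with no filter, which tests more genes, 787 with DESeq2 and 21 without saline tumors 2 and 4, an alternative chosen after seeing the data. Upper quartile scaling gave 145 higher and 73 lower genes. The number of genes ran from 10 to 203 with each tumor left out. With a replicate block it was 14, and the log2 fold changes were -3.95 for Igkc, -5.73 for Ighg1 and -3.15 for Jchain. The numbers do not pair the tumors: correlations of same-numbered tumors were -0.17, -0.05, 0.08 and -0.07, and 1 of 4 saline tumors correlated best with its own number. Segments past the thresholds were 3 with no filter in edgeR, beside 358 of 31459 genes, and 1 with no filter in DESeq2, beside 806 of 19770. With the filter kept, segments past the thresholds were 0 in each alternative run. At most 1 segment passed the filter in any of these, so this 0 does not show a stable result. The causes were not tested. With 11, 16, 77 and 1 V counts in mAb-DXd/IMQ tumors 1 to 4, depth limits what usage and diversity can show there, and the missing counts do not show that segments were absent.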
